A study of Homo sapiens with 6 samples.

Results

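NF-kB is a family of dimeric transcription factors that drives inflammatory and survival genes, and triple-negative breast cancer lines are known for high basal activity of the pathway. Its dimers are built from RELA, REL and RELB, which carry transactivation domains, and from the products of NFKB1 and NFKB2, which are made as longer precursors that also act as inhibitors. In the canonical arm, the IkB kinase complex marks IkB proteins for destruction and frees dimers of RELA or REL with the NFKB1 product. In the non-canonical arm, the kinase encoded by MAP3K14 triggers processing of the NFKB2 precursor, which releases dimers with RELB. Several genes that NF-kB switches on then shut it off, so that their transcripts form a feedback layer.

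The genes described here are the 5 subunits and 5 feedback genes of this system, chosen by symbol from the 17631 genes in the deposited tables. The canonical subunits were NFKB1, RELA and REL, the non-canonical subunits were NFKB2 and RELB, and the feedback genes were NFKBIA, NFKBIE, NFKBIZ, TNFAIP3 and BIRC3. All 10 passed the filter on low values, as did 12582 genes in all. The libraries came from MDA-MB-231 cells, a widely used human line of triple-negative breast cancer, treated for 24 h with vehicle (3 libraries) or with 30 µM PDBAG1 (3 libraries). PDBAG1 is a peptide from the metabolic enzyme GPD1 joined to a cell-penetrating sequence. The study used this RNA-seq to look for the mechanism behind the peptide's effect on cancer cells, and the comparison of PDBAG1 with vehicle is the only one in the design. One line was used, and the labels do not say whether the 3 libraries of a group came from separate cultures, so p-values measure the spread between these libraries, which may be technical.

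Values are transcript abundances in TPM, a unit scaled for transcript length and for the library total, so levels can be compared between genes. TPM keeps no record of depth, so depth is unknown and no counting error can be given. Between 12392 and 12611 genes per library stood at 1 TPM or more, and log2 differences between 2 libraries had an SD of 0.14 to 0.18 inside a group and 0.28 to 0.30 across groups. The labels also name breast cancer tissue as the source. The line's markers VIM, CD44, KRT18, KRT8 and AXL stood at 309 to 5942 TPM taken over single libraries. VIM was at 4174 to 4346 TPM without the peptide and 5758 to 5942 TPM with it, and CD44 at 313 to 331 and 463 to 499 TPM. KRT8 was also higher with the peptide, at 571 to 583 TPM without it and 673 to 692 TPM with it. KRT18 was lower, at 508 to 527 TPM without the peptide and 439 to 456 TPM with it, and so was AXL, at 375 to 394 and 309 to 341 TPM. ESR1 and PGR were at 0 to 3.38 TPM and ERBB2 at 23.6 to 25.4 TPM. Of the endothelial, adipocyte and fibroblast markers, 9 genes in all, PECAM1 (3.78 to 4.08 TPM without the peptide, 7.87 to 9.15 TPM with it) and COL1A1 (3.89 to 4.92 TPM) were above 1 TPM, and the other 7 were under it in every library. The leukocyte gene PTPRC was at 0.86 to 1.41 TPM, LYZ at 1.45 to 2.49 TPM and CD14 at 6.01 to 7.70 TPM, while CD68, which is not restricted to leukocytes, was at 251 to 264 TPM without the peptide and 306 to 329 TPM with it. The part of these genes in the results was not tested. In bulk RNA, fewer cells that express a gene and less of its RNA per cell cannot be told apart.

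NF-kB binds a short near-palindromic element, the kappaB consensus. Because many members are themselves NF-kB targets, the RefSeq promoters (GRCh38.p14, 250 bases before to 50 after each annotated start) were searched for it on both strands. The table held 13 promoters of 8 members, with RELB and NFKBIE not listed. A match was present in 9 of the 13 promoters and for 7 of the 8 members, against 11.3% of all 35116 promoters of this length and 13.3% of the 27305 genes they belong to. NFKB1, NFKB2, NFKBIZ and RELA had more than 1 start in the table, which gives them more sequence to match. The members were chosen as genes of this pathway, so a high share could come from that choice and is not a result of these libraries. RELA was the 1 member without a match in its 2 promoters. Matches of each class are printed in 30-base windows to show the element found in 7 members. Windows are read 5′ to 3′ on the gene's strand, with the matched bases in capitals. In NFKBIA, TNFAIP3 and BIRC3 the capitals fit the consensus only on the opposite strand. The first set holds the canonical subunits, the second the non-canonical subunit NFKB2 and the last the feedback genes. Not printed are the match from -176 to -167 at the third NFKB2 start and that from -239 to -230 at the second NFKBIZ start.

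NFKB1, chr4:102501300-102501329, plus strand: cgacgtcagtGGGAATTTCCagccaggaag
REL, chr2:60881517-60881546, plus strand: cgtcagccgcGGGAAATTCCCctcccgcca

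NFKB2, at the second annotated start, chr10:102394461-102394490, plus strand: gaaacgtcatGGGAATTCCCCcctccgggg
NFKB2, at the second annotated start, chr10:102394490-102394519, plus strand: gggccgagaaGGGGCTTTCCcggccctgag
NFKB2, at the third annotated start, chr10:102395674-102395703, plus strand: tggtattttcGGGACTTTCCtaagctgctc

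NFKBIA, chr14:35404811-35404840, minus strand: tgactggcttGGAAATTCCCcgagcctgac
TNFAIP3, chr6:137867188-137867217, plus strand: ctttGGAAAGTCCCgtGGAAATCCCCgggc
BIRC3, chr11:102317275-102317304, plus strand: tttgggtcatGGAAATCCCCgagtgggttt
BIRC3, chr11:102317339-102317368, plus strand: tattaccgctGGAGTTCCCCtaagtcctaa
NFKBIZ, at the first annotated start, chr3:101827757-101827786, plus strand: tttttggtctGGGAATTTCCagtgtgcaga

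The capitals span 2 overlapping matches in REL and in the first NFKB2 window, and 2 neighbouring matches in TNFAIP3. The matches in NFKB1, REL, NFKBIA and TNFAIP3 lay between positions -81 and -37 from the start, while those in BIRC3 and NFKBIZ lay between -239 and -126. A match is a description of the letters and was not tested as a binding site. Another 2 elements were searched for: ACGTG, the core of hypoxia-response elements, was found in the TNFAIP3 promoter alone, on both strands at overlapping positions (21.4% of all promoters), and TGANTCA, the AP-1 element, in none of the 13 (7.71% of all promoters).

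**Figure D1:**
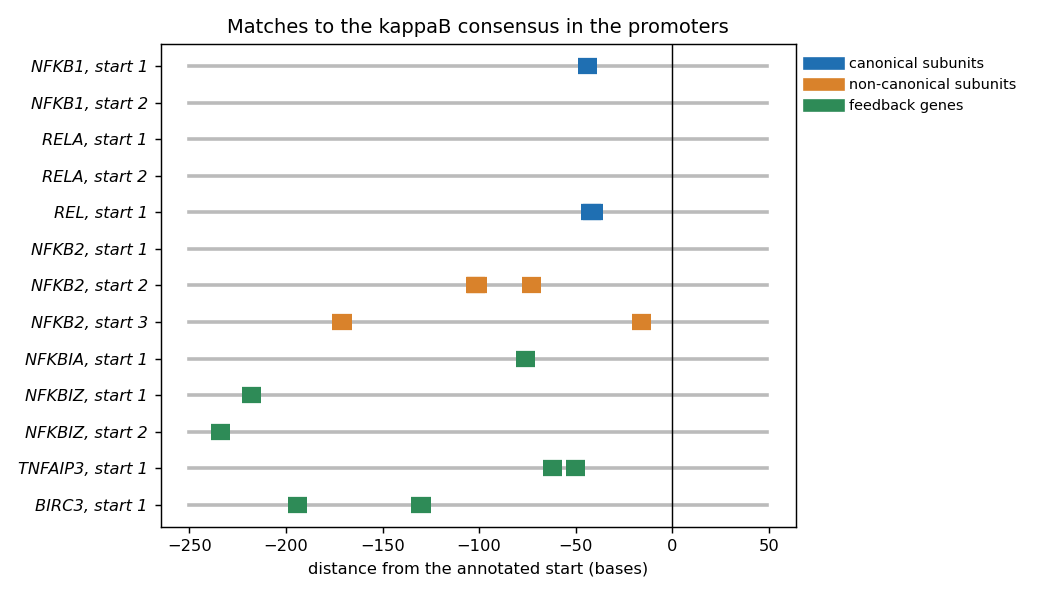
Positions of kappaB consensus matches (coloured blocks, by class) in the 13 RefSeq promoters of 8 members, drawn as grey lines; the horizontal axis is the distance from the annotated start in bases. 9 of the 13 promoters hold a match, the 2 promoters of RELA hold none, and every match lies before the start.

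With PDBAG1, 9 of the 10 genes were higher at a limma adjusted p under 0.05, and none was lower. All 10 fitted changes were positive, so none was lower at an unadjusted p under 0.05 either. Over all genes tested, 21.7% were higher and 15.9% lower at this threshold. Under quantile normalization higher calls made up 46.7% of all calls, against 57.8% as deposited. The median log2 fold change of the 10 genes was 0.33, against 0.031 over all genes tested. In the same 9 genes all 3 PDBAG1 values exceeded all 3 vehicle values, a pattern that 27.2% of all tested genes showed, and in none was the order the opposite (20.2% of all tested genes). A rise of at least 1.5-fold, the study's limit, was reached by NFKB2, RELB and TNFAIP3, against 2.86% of all genes, and no member fell as far (0.477% of all genes). Changes are on the log2(TPM + 1) scale, which understates those of low genes.

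**Figure D2:**
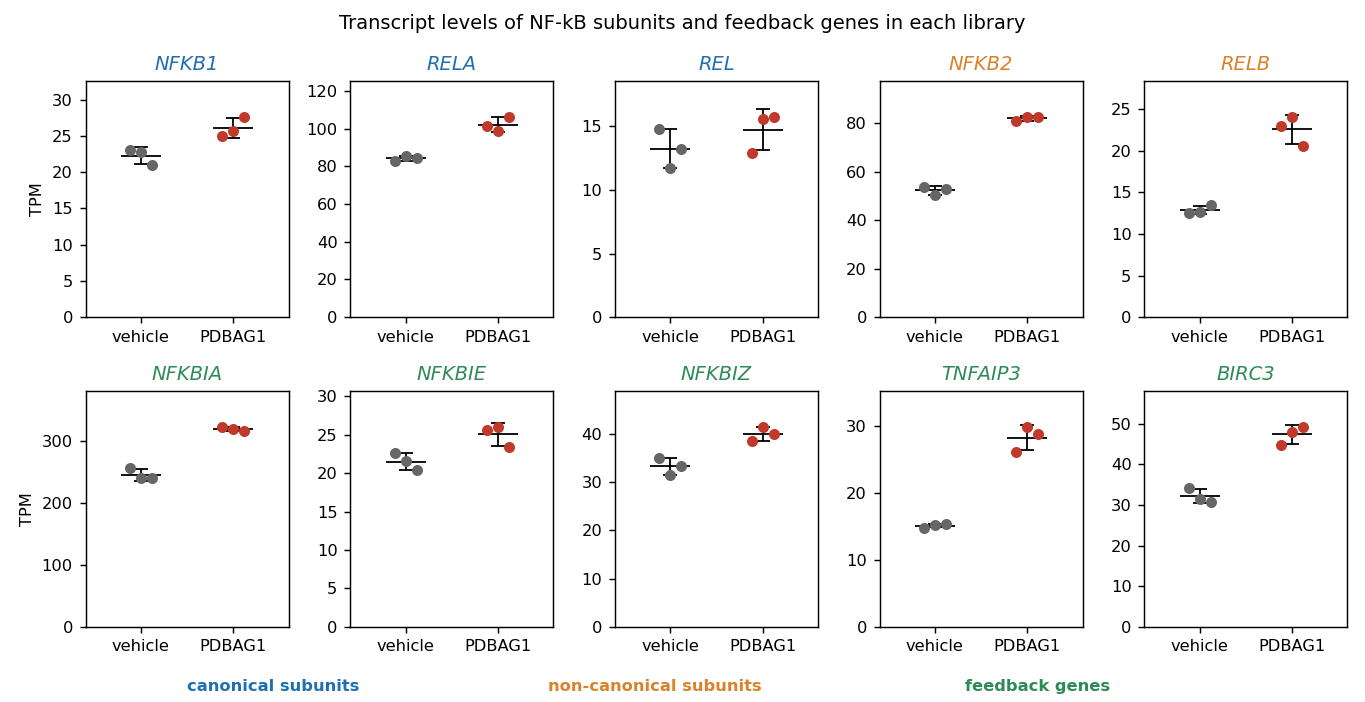
TPM (vertical axes, from 0) of each member in the 3 vehicle libraries (grey) and the 3 PDBAG1 libraries (red), with the mean and SD as black marks. The groups are apart in 9 panels and overlap in that of REL.

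The non-canonical subunits rose most among the subunits. NFKB2 (chr10:102394110-102402524, GRCh38, GENCODE v44) encodes the p100 precursor of p52. It stood at 53.9, 50.5 and 52.7 TPM with vehicle and at 81.0, 82.6 and 82.6 TPM with PDBAG1. Its PDBAG1 libraries were within 2 TPM of each other and far above the vehicle libraries. The log2 fold change was 0.64 (standard error, SE, 0.05; limma adjusted p = 2.50e-07).

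RELB (chr19:45001461-45038192), the usual partner of p52, was at 12.5, 12.7 and 13.4 TPM with vehicle, a range that overlapped that of REL, the other low subunit. With PDBAG1 it was at 23.0, 24.1 and 20.6 TPM, so that the lowest treated library, replicate 3, was still over 7 TPM above the highest vehicle library. The log2 fold change was 0.76 (SE 0.07, limma adjusted p = 3.00e-06). With PDBAG1, RELB lay above REL in every library and reached the range of NFKBIE.

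The canonical subunits changed less. RELA (chr11:65653599-65663090), the main transactivating subunit and the most abundant of the 5, was at 82.6, 85.4 and 84.7 TPM with vehicle and at 102, 98.5 and 106 TPM with PDBAG1. Its groups did not overlap, and the log2 fold change was 0.27 (SE 0.05, limma adjusted p = 0.000351). NFKB1 (chr4:102501330-102617302), which encodes the p105 precursor of p50, was at 23.1, 22.8 and 21.0 TPM with vehicle and at 25.0, 25.7 and 27.6 TPM with PDBAG1. The gap between the groups was under 2 TPM, and the log2 fold change was 0.22 (SE 0.06, limma adjusted p = 0.0173). When single libraries were left out, the call of NFKB1 was lost without vehicle replicate 3 (log2 fold change 0.18, limma adjusted p = 0.0959) and without PDBAG1 replicate 3 (0.18, limma adjusted p = 0.0637).

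REL (chr2:60881491-60931612), which encodes the lymphoid-enriched subunit c-Rel, was the member that did not pass. It was at 14.8, 11.7 and 13.2 TPM with vehicle and at 12.9, 15.6 and 15.7 TPM with PDBAG1. PDBAG1 replicate 1 lay below vehicle replicates 1 and 3. The log2 fold change was 0.15, with a 95% interval of -0.06 to 0.35 (limma adjusted p = 0.249), which does not show that REL stayed the same. REL shared 33.3% of its annotated exonic bases with a long non-coding gene on the same strand, so its level is uncertain. The other members shared at most 3.29% with a neighbour.

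**Figure D3:**
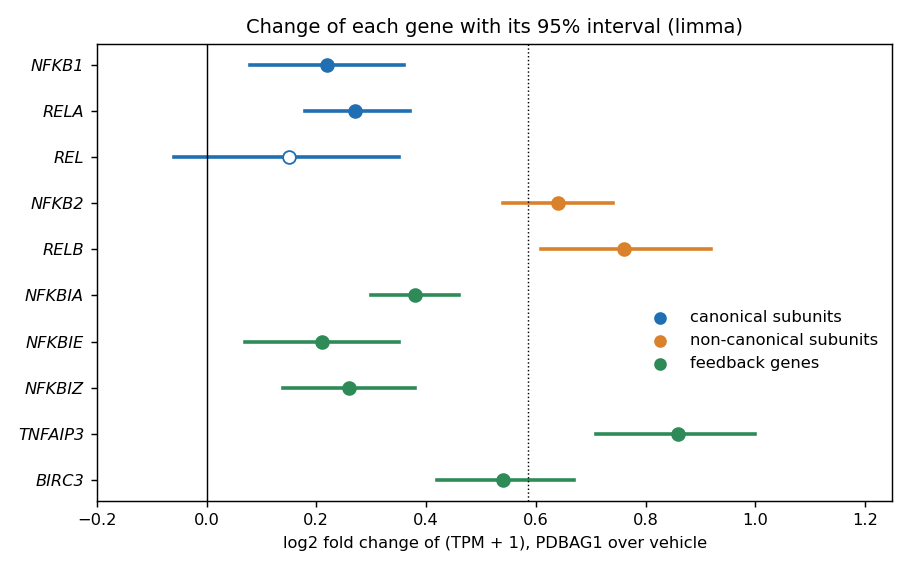
Log2 fold change of each member (points) with its 95% interval from limma (bars), coloured by class; filled points passed an adjusted p of 0.05, and the dotted line marks 1.5-fold. The intervals of NFKB2 and RELB lie to the right of those of NFKB1, RELA and REL.

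The 95% intervals of the log2 fold changes of NFKB2 and RELB did not overlap those of NFKB1 and RELA. They were 0.54 to 0.74 for NFKB2 against 0.08 to 0.36 for NFKB1, and 0.61 to 0.92 for RELB against 0.18 to 0.37 for RELA. Each interval was fitted for 1 gene, so they do not test the difference between genes, which the ratios below address. Activity of the 2 arms was not measured. Within each library, the log2 ratio of NFKB2 to NFKB1 averaged 1.20 ± 0.09 in the vehicle libraries and 1.62 ± 0.06 in the PDBAG1 libraries (SD, n = 3 each), a difference of 0.42. The log2 ratio of RELB to RELA went from -2.62 ± 0.05 to -2.13 ± 0.16 (SD, n = 3 each), a difference of 0.49. In both ratios the groups did not overlap. The two-sided exact permutation p was 0.1 for each, the smallest that 3 libraries against 3 can give, and 0.14 after Benjamini-Hochberg adjustment over the 7 ratios computed. For REL to RELA the difference was -0.13 and the groups overlapped (exact permutation p = 0.5).

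Summed over the 5 subunits, the level averaged 185 ± 1.90 TPM in the vehicle libraries and 248 ± 4.72 TPM in the PDBAG1 libraries (SD, n = 3 each). Of this sum, NFKB2 and RELB together made up 35.5%, 34.5% and 35.8% in the vehicle libraries and 42.7%, 43.3% and 40.8% in the PDBAG1 libraries. NFKB2 alone went from 28.3% ± 0.660 to 33.2% ± 0.436 of the subunit transcripts and RELB from 6.95% ± 0.288 to 9.13% ± 0.849 (SD, n = 3 each). The share of RELA averaged 45.5% ± 1.23 in the vehicle libraries and 41.2% ± 1.11 in the PDBAG1 libraries (SD, n = 3 each), although its level was higher, and it kept the largest share in every library. These shares were not tested.

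**Figure D4:**
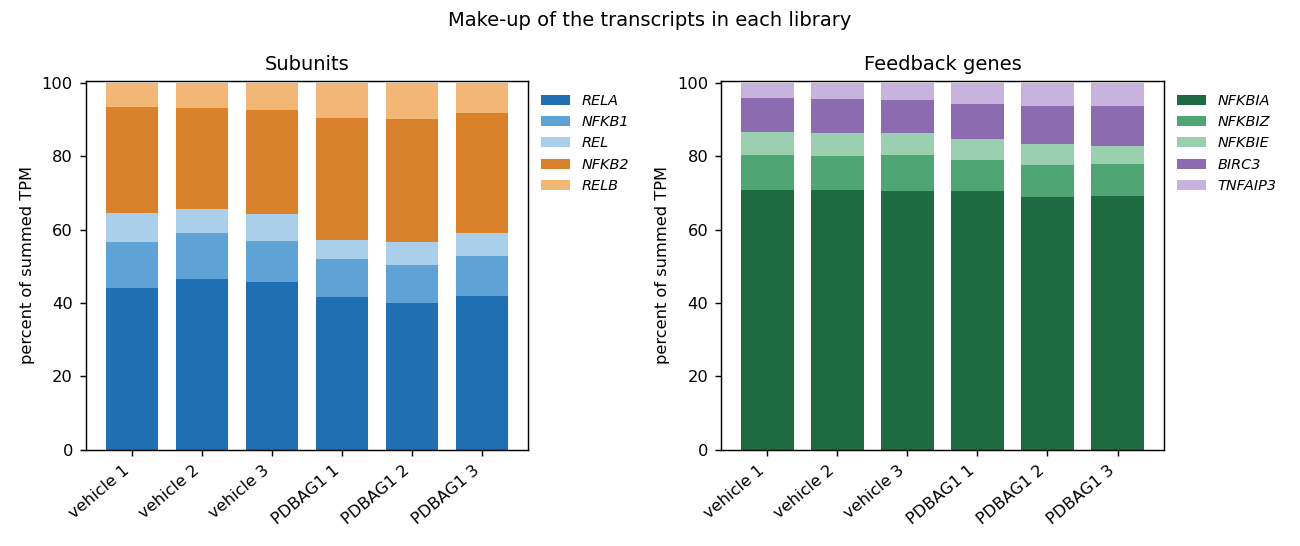
Percent of the summed TPM (vertical axes) taken by each of the 5 subunits (left; canonical in blue, non-canonical in orange) and each of the 5 feedback genes (right; IkB genes in green) in the 6 libraries. The orange part is larger in all 3 PDBAG1 libraries, and NFKBIA keeps 68.8% to 70.7% of the feedback transcripts.

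The feedback genes all rose, but by unequal amounts. TNFAIP3 (chr6:137867214-137883314) encodes the ubiquitin-editing enzyme A20, which shuts off signalling above the IkB kinase. It changed most of the 10 genes, from 14.8, 15.3 and 15.3 TPM with vehicle to 26.2, 29.9 and 28.8 TPM with PDBAG1. The vehicle libraries lay within 1 TPM of each other, and every PDBAG1 library was over 10 TPM higher. The log2 fold change was 0.86 (SE 0.07, limma adjusted p = 4.38e-07), which 99.1% of the tested genes did not reach.

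BIRC3 (chr11:102317484-102339403) encodes cIAP2, a ubiquitin ligase that takes part in TNF receptor signalling and restrains MAP3K14. It was at 34.3, 31.5 and 30.9 TPM with vehicle and at 44.8, 48.1 and 49.3 TPM with PDBAG1, with no overlap. Its log2 fold change of 0.54 (SE 0.06, limma adjusted p = 1.14e-05) fell just short of 1.5-fold and passed it without vehicle replicate 1. Its paralogue BIRC2, which shares this role and was picked after its value was seen, had means of 150 ± 11.2 TPM in the vehicle libraries and 142 ± 9.70 TPM in the PDBAG1 libraries (SD, n = 3 each; limma adjusted p = 0.273).

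NFKBIA (chr14:35401079-35404749), which encodes IkBα, the rapid feedback inhibitor of RELA dimers, was the most abundant of the 10 genes. It was at 257, 241 and 240 TPM with vehicle and at 324, 320 and 317 TPM with PDBAG1. The step of 74.2 TPM between the means was the largest in absolute terms, while the log2 fold change was 0.38 (SE 0.04, limma adjusted p = 6.50e-06). Relative to the 5 subunits together, NFKBIA stood at 1.33 ± 0.0420 TPM per subunit TPM without the peptide and at 1.29 ± 0.0383 with it (SD, n = 3 each), and these ranges overlapped. The log2 ratio of NFKBIA to RELA differed by 0.11, also with overlap (exact permutation p = 0.2).

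The other IkB genes rose least. NFKBIZ (chr3:101827991-101861022) encodes the nuclear protein IkBζ, which acts as a coactivator for some NF-kB targets and represses others. It was at 34.9, 31.5 and 33.3 TPM with vehicle and at 38.5, 41.5 and 39.95 TPM with PDBAG1 (log2 fold change 0.26, SE 0.06, limma adjusted p = 0.00316). NFKBIE (chr6:44258166-44265788) encodes IkBε, a cytoplasmic inhibitor that responds later than IkBα. Its values of 22.6, 21.6 and 20.3 TPM with vehicle and 25.7, 26.03 and 23.4 TPM with PDBAG1 came within 1 TPM of each other (log2 fold change 0.21, SE 0.07, limma adjusted p = 0.0235). The call of NFKBIE was lost when vehicle replicate 2 (adjusted p = 0.059, limma), vehicle replicate 3 (0.115), PDBAG1 replicate 1 (0.0548) or PDBAG1 replicate 2 (0.105) was left out.

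Set against each other within a library, the log2 ratio of NFKBIE to NFKBIA was lower by 0.17 with PDBAG1, that of NFKBIZ to NFKBIA by 0.12 and that of BIRC3 to TNFAIP3 by 0.31. None of these 3 ratios overlapped between the groups, and each had an exact permutation p of 0.1 (adjusted 0.14). TNFAIP3 went from 4.35% ± 0.248 to 6.14% ± 0.382 of the feedback transcripts (SD, n = 3 each). In the order of levels, NFKBIA, RELA and NFKB2 were the most abundant, in this sequence, in both groups and without overlap. Next came NFKBIZ and BIRC3, which overlapped with vehicle, and BIRC3 lay above NFKBIZ in every PDBAG1 library. NFKB1 and NFKBIE overlapped in both groups. TNFAIP3, below both with vehicle, overlapped NFKB1 with PDBAG1.

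The rest of the pathway was read from lists of its other genes, whose counts stand beside 21.7% higher and 15.9% lower over all genes tested. At 1.5-fold, 2.86% of all genes tested were higher and 0.477% lower. The lists were chosen with earlier results of these data known. Of 19 genes of the IkB kinase complex and the adaptors above it, 6 rose and 1 fell at a limma adjusted p under 0.05, with a median log2 fold change of 0.08 and no 1.5-fold change. The rises numbered 4 without vehicle replicate 2, without vehicle replicate 3 or without PDBAG1 replicate 2. The largest rises were those of TRADD, the adaptor of the TNF receptor (log2 fold change 0.41), of TAB3, a partner of the kinase TAK1 (0.38), of TRAF5 (0.30) and of RBCK1, a component of the linear ubiquitin ligase (0.23). IKBKB, of the same kinase complex and picked after its value was seen, was also called higher (log2 fold change 0.18, limma adjusted p = 0.0216). It was not among the rises where these numbered 4. The gene that fell was CHUK, which encodes the kinase IKKα, used by both arms (log2 fold change -0.19), at 44.8 ± 2.60 TPM without the peptide and 39.1 ± 2.51 TPM with it (SD, n = 3 each). Its groups did not overlap, but the call was lost without vehicle replicate 1 (limma adjusted p = 0.0928) or PDBAG1 replicate 2 (0.118), without the expression filter (0.0558) and without the variance trend (0.0607).

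Of 9 genes that control the non-canonical kinase, 3 of which also stand in the list above, 2 rose and 2 fell, and the median log2 fold change was 0. These shares are near those over all genes tested (21.7% and 15.9%). MAP3K14, the kinase that starts processing of p100, was at 11.9, 13.03 and 12.05 TPM with vehicle and at 9.13, 10.4 and 9.42 TPM with PDBAG1. Every PDBAG1 library lay below every vehicle library (log2 fold change -0.32, SE 0.08, limma adjusted p = 0.00518). The receptor genes TNFRSF12A and LTBR, which feed this arm, rose by log2 fold changes of 0.21 and 0.15. The call of LTBR was lost without vehicle replicate 3 (limma adjusted p = 0.0543) and that of TNFRSF12A under median-of-ratios scaling (0.0598). TRAF3, which holds the kinase protein low and was picked after its value was seen, averaged 17.6 ± 1.85 TPM without the peptide and 17.6 ± 1.05 TPM with it (SD, n = 3 each), and its log2 fold change had a 95% interval of -0.17 to 0.17. Of 5 chemokine and cytokine genes known as non-canonical targets, 3 were in the tables (CXCL12, CXCL13 and TNFSF13B). All 3 were under 1 TPM in every library and could not be tested.

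Among 15 other genes listed as brakes on NF-kB, 7 rose, 1 fell and 7 did not pass, with a median log2 fold change of 0.20. The list goes by gene name, and whether the product of a listed gene restrained or aided NF-kB in these cells was not measured. TNIP1, which encodes a partner of A20, changed most, from 246, 258 and 240 TPM to 433, 427 and 427 TPM (log2 fold change 0.79, SE 0.04, limma adjusted p = 3.65e-09). Its relative TNIP3, at 4.62, 3.76 and 3.61 TPM with vehicle, was at 7.90, 7.28 and 6.08 TPM with PDBAG1 (log2 fold change 0.69), and both passed 1.5-fold. BCL3, a nuclear IkB protein that joins p50 and p52 dimers, rose by 0.52 and ZC3H12A, an RNase that degrades inflammatory transcripts, by 0.49 on the log2 scale. The gene that fell was COMMD1 (log2 fold change -0.23), picked by its direction after its value was seen. Its call was lost without vehicle replicate 3 (limma adjusted p = 0.0786).

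Of 8 tested receptors that feed the canonical arm, 3 rose and none fell, with a median log2 fold change of 0.24. TLR2 rose by a log2 fold change of 0.59, TNFRSF1B by 0.57 and IL1RAP by 0.32. TLR2 and TNFRSF1B stood below 6 TPM in both groups. None of the 8 fitted changes was negative, so no receptor was lower at an unadjusted p under 0.05 in limma either.

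Of 23 tested genes known as NF-kB targets, 17 rose and 4 fell, and the median log2 fold change was 0.72. Of the rises, 15 passed 1.5-fold, against 2.86% of all genes tested. The 4 largest changes, those of PTGS2 (log2 fold change 2.29), IL1B (1.77), CSF2 (1.36) and IL1A (1.10), exceeded that of every subunit and feedback gene. The 4 that fell were GADD45B (log2 fold change -0.57), CXCL1 (-0.28), CD83 (-0.22) and BCL2L1 (-0.21). The call of CD83 (limma adjusted p = 0.0442) was lost in 6 of 13 alternatives, among them without vehicle replicates 1 or 3 and without PDBAG1 replicates 2 or 3 (0.102 to 0.161), while those of the other 3 held in all 13. CXCL1 fell from 560 ± 15.5 to 462 ± 20.5 TPM (SD, n = 3 each), whereas CXCL2, a close relative, went from 36.4, 38.5 and 36.3 TPM to 67.4, 70.2 and 73.1 TPM. TNF itself ranged over 0.12 to 0.63 TPM in the vehicle libraries and 0.65 to 1.14 TPM in the treated ones and was not tested. CXCL2 and TNF were picked after their values were seen.

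**Figure D5:**
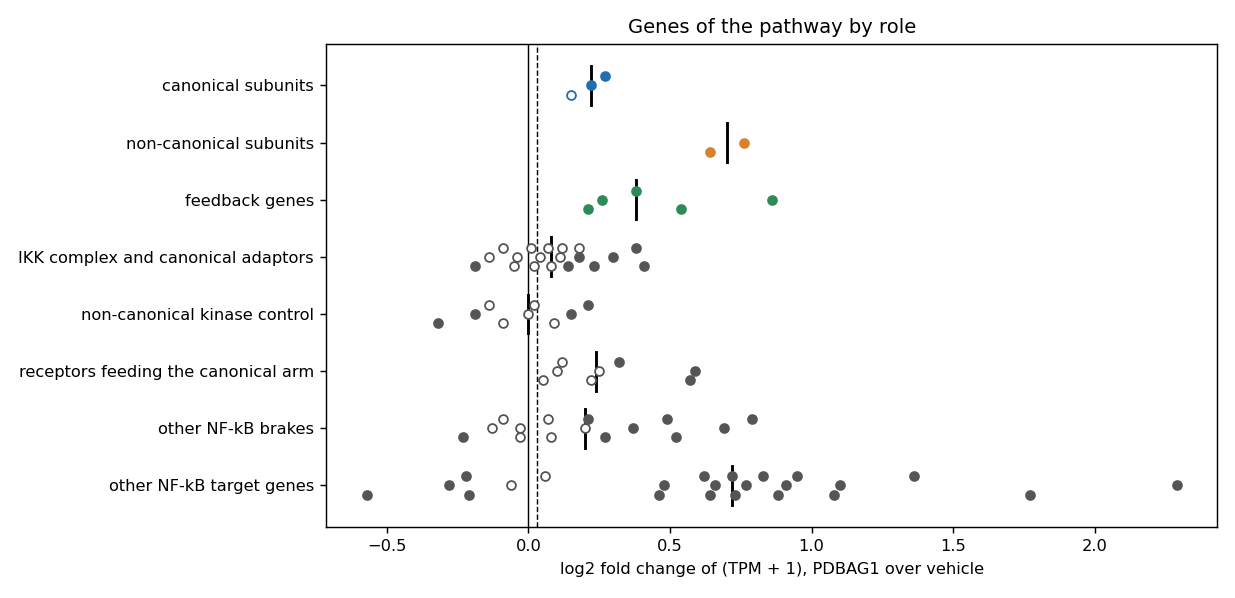
Log2 fold change of (TPM + 1) with PDBAG1 (horizontal axis) for each tested gene, in rows by role; filled points passed a limma adjusted p of 0.05, black bars are the median of a row and the dashed line is the median of all genes tested. The rows of the kinase complex and of the non-canonical kinase control have medians of 0.08 and 0, and that of the targets 0.72.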

How the data were processed

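mRNA libraries were sequenced on the BGISEQ-500 platform. According to the methods, the authors aligned clean reads to GRCh38 using HISAT2 and took counts by gene. The submitters' processing notes name HISAT2 2.0.4, Bowtie2 2.2.5 and RSEM 1.2.12. The methods speak of FPKM, while the values the authors deposited are TPM per the file headers, given to 2 decimals for 17631 genes, with an equal total per library. The annotation behind them is not given in the sources used here, nor is the use of strand in counting. Depth is unknown.

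Samples were grouped by their titles. The filter kept genes that reached 1 TPM in at least 3 libraries, and log2(TPM + 1) was tested across all of them in R 4.3.3 with limma 3.58.1 (lmFit, eBayes with a variance trend), with Benjamini-Hochberg adjustment over all genes tested. Calls were made at an adjusted p under 0.05, and calls of at least 1.5-fold were counted beside them. Ratios of 2 genes were compared by a two-sided exact permutation test over libraries. The fit was tested on simulated data. The genes named were all 10 members, the 4 called genes of each other list with the largest change, and the genes behind small counts. Other names are marked as picked after their values were seen. The members and lists were chosen with earlier results of these data known. Gene positions came from GENCODE v44 (GRCh38) and promoters were those of RefSeq on GRCh38.p14. Alternatives were other filters, scalings, a pseudocount of 0.1, no variance trend, a replicate block and leaving out each library.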

Additional observations from a re-analysis of the deposited data

How the results depend on the processing

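Under the 13 alternatives none of the 10 genes changed direction. RELA, NFKB2, RELB, NFKBIA, NFKBIZ, TNFAIP3 and BIRC3 kept their calls in each of them, and REL passed in none. The number called higher was 9 as reported, 8 under quantile normalization, where NFKBIE was lost (log2 fold change 0.17, limma adjusted p = 0.0632), and 7 to 9 with each library left out. No member was called lower in any setting, and 3 to 4 passed 1.5-fold. The log2 fold change of NFKB2 ranged from 0.60 to 0.66, that of RELB from 0.71 to 0.82 and that of TNFAIP3 from 0.80 to 0.91.

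In a fit with a replicate block, 8 members were called, and NFKB1 missed the threshold (log2 fold change 0.22, limma adjusted p = 0.05001). No source says that the numbers pair the libraries, and the deviations of libraries that share a number had correlations of -0.21, 0.01 and -0.08, none over 0.1.

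Small counts in the pathway lists moved. Genes of the IkB kinase list called higher numbered 4 with the replicate block and 4 to 7 with each library left out, against 6. Those called lower, CHUK in the reported fit, numbered 1 as reported, 0 without the expression filter or the variance trend, 2 under median-of-ratios scaling and under quantile normalization, and 0 to 2 with each library left out. Genes of the non-canonical kinase control called lower numbered 2 as reported, 1 without the filter or the trend, 3 under each of the 2 other scalings and 1 to 3 with libraries left out, and those called higher 1 under median-of-ratios scaling and 1 to 2 with libraries left out. Brakes called lower numbered 0 to 1 with libraries left out. Target genes called lower numbered 3 in 6 of 13 alternatives, against 4, with CD83 lost in each. The cause was not tested. The 7 ratios kept their sign under a pseudocount of 0.1 and with each library left out, and no p from 3 libraries against 3 can pass 0.05. Unknown depth limits what can be said of genes near 1 TPM.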
